A study of Mus musculus with 371 samples.

Results

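Hif1a and 9 genes of glucose uptake and glycolysis (Slc2a1, Hk2, Gpi1, Aldoa, Tpi1, Pgk1, Pgam1, Eno1 and Ldha) are described in single T cells from B16F10 melanoma tumours of C57BL/6 mice. They were taken by name, 10 of 23362 genes, and all 10 were found in the table. The cells came from mice whose genotype is labelled IL27raKO (KO, lacking the alpha chain of the IL-27 receptor) or WT, and each title names a CD8 or a CD4 sort. The labels' protocols name only CD8+ T cells as isolated, so the CD4 sort is known from the titles alone. The titles of both CD8 groups carry p1 and those of both CD4 groups p2, so sort and p label cannot be told apart. Every group carries 1 animal name and the number 3, and is read here as 1 sorted pool with no replicate: pool and genotype cannot be told apart, no test between groups was possible, and the SD given is the spread over the cells of 1 pool.

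Glycolysis splits glucose into pyruvate. The transporter GLUT1 (Slc2a1) lets glucose in, hexokinase 2 (Hk2) phosphorylates it, and Gpi1, Aldoa and Tpi1 encode the isomerase, aldolase and triose phosphate isomerase that turn the sugar phosphate into triose phosphates. Pgk1, Pgam1 and Eno1 encode phosphoglycerate kinase, phosphoglycerate mutase and enolase of the lower steps, and Ldha the lactate dehydrogenase subunit that makes lactate from pyruvate. Hif1a encodes the oxygen-regulated subunit of HIF-1, which prolyl hydroxylases mark for destruction when oxygen is present, and which otherwise pairs with ARNT and binds the hypoxia response element in the promoters of many glycolytic genes. Activated T cells are known to raise glycolysis, and HIF-1α is held mainly at the level of the protein, which RNA does not show.

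The core of the hypoxia response element, written ACGTG or GCGTG, was searched on both strands of the RefSeq promoter windows, which hold 250 bases before and 50 bases after a transcript start (build GRCm38.p6). All 10 genes had a window, 15 windows in all. At least 1 window held either word in 8 of the 10 genes, against 46.7% of 27025 genes, and ACGTG in 7, against 21.8%. A palindrome CACGTG holds ACGTG on both strands and counts on each. A match is a description of letters and not a bound site. The windows below, 5′ to 3′ on the strand of the gene with the words in capitals, belong to Pgk1 and Pgam1, which had the lowest differences between KO and WT CD8 cells, to Hif1a, which had the highest differences between CD4 and CD8 cells, to Ldha, which was detected most often, and to Tpi1, which had neither word.
Pgk1 (chrX:106186850-106187149, plus strand): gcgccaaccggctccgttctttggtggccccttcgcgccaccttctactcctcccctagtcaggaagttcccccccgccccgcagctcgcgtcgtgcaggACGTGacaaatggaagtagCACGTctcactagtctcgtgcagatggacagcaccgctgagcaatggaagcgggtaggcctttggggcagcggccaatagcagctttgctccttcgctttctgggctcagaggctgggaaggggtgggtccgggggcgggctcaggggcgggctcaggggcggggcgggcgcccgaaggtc
Pgam1 (chr19:41911621-41911920, plus strand): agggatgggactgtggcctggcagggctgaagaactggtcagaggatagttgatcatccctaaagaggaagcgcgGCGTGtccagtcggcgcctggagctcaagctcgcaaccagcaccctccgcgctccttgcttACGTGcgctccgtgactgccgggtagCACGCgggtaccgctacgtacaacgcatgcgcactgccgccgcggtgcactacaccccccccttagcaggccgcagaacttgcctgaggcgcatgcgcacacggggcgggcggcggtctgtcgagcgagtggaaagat
Hif1a (chr12:73907617-73907916, plus strand): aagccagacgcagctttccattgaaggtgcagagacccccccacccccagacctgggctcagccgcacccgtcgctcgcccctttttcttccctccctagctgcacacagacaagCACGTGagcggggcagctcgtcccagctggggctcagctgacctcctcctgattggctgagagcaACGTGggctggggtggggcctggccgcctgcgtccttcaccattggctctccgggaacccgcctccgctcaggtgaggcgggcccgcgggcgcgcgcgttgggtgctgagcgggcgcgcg
Ldha (chr7:46845554-46845853, plus strand): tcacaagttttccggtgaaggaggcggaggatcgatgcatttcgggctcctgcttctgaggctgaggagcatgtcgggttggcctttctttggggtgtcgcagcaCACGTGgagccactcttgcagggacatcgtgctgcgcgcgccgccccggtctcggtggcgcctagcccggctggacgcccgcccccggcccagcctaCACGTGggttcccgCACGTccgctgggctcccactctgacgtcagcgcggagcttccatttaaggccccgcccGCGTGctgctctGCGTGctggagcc
Tpi1 (chr6:124814109-124814408, minus strand): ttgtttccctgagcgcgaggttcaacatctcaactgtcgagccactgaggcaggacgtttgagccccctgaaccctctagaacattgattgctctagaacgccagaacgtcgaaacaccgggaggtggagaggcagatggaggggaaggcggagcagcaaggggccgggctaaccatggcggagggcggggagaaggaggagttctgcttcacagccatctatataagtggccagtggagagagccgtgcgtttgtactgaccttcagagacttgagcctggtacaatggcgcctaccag
The Pgk1 window held ACGTG at 2 places. The Pgam1 window held ACGTG at 1 place and GCGTG at 2. In the Hif1a window ACGTG counted 3 times, of which a CACGTG gave a pair. The Ldha window, 1 of 2 for that gene, held ACGTG 5 times, with 2 CACGTG, and GCGTG at 2 places. Hk2 had ACGTG at 2 places, Slc2a1 had each word once, Aldoa had ACGTG alone, Eno1 had GCGTG alone, and Gpi1, like Tpi1, had neither. Windows with ACGTG 2 or more times made up 8.21% of 32851 windows of all genes. A gene with more windows has more places for a word, and the 10 genes had 15 windows, beside 32851 for 27025 genes.

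Cells were kept where 1000 or more genes reached 1 FPKM (called detected genes), which left 350 cells, 86 of 90 KO CD8, 90 of 94 WT CD8, 89 of 93 KO CD4 and 85 of 94 WT CD4 cells. FPKM are fragment counts scaled by transcript length and by the mapped total of the cell, so that levels of different genes can be compared per length. The median number of detected genes was 1955 in KO CD8, 2148 in WT CD8, 1868 in KO CD4 and 1661 in WT CD4 cells. At least 3000 genes were found in 3 KO CD8, 21 WT CD8, 9 KO CD4 and 7 WT CD4 cells. Cd8a was detected in 81.4% of KO CD8 and 83.3% of WT CD8 cells, and Cd4 in 87.6% of KO CD4 and 87.1% of WT CD4 cells. In the other sort, Cd8a was found in 1.12% of KO CD4 and 2.35% of WT CD4 cells, and Cd4 in no CD8 cell. Cd8b1 was detected in 91.9% of KO CD8 and 86.7% of WT CD8 cells, but also in 21.3% of KO CD4 and 24.7% of WT CD4 cells. At least 2 of 8 T cell markers were found in 96.5% to 98.9% of the cells of each group. Cells with 2 or more markers of melanoma, myeloid, neutrophil, B or red blood cells at 10 FPKM or above were 23.3% to 27.1% of each group, and they are left out in an alternative described at the end. Il27ra was detected in 53.5% of KO CD8, 51.1% of WT CD8, 50.6% of KO CD4 and 50.6% of WT CD4 cells. The table gives 1 value over the whole gene, so this does not check the genotype, and KO stands below for cells labelled KO.

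The 10 genes are listed in 3 tiers of detection, of which the first and second overlapped through Hif1a in the CD4 groups. Ldha, Gpi1, Aldoa and Eno1 were at 1 FPKM or above in 71.8% to 89.9% of the cells of every group, Tpi1, Pgk1, Pgam1 and Hif1a in 29.1% to 80.9%, and Slc2a1 and Hk2 in 5.81% to 18.9%. Ldha had the highest mean level of the 10 in KO CD8, WT CD8, KO CD4 and WT CD4 cells, 901, 1430, 1794 and 1214 FPKM. Its highest cell reached 10993 FPKM in the KO CD4 group. Within a group, cells ranged from 1 or 2 of the 10 genes up to 9 or 10. On average 4.99 ± 1.86 of the 10 were detected in KO CD8 cells, 5.79 ± 2.27 in WT CD8, 5.88 ± 2.03 in KO CD4 and 5.29 ± 2.13 in WT CD4 cells (SD over cells, n = 86, 90, 89 and 85 cells).

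**Figure D1:**
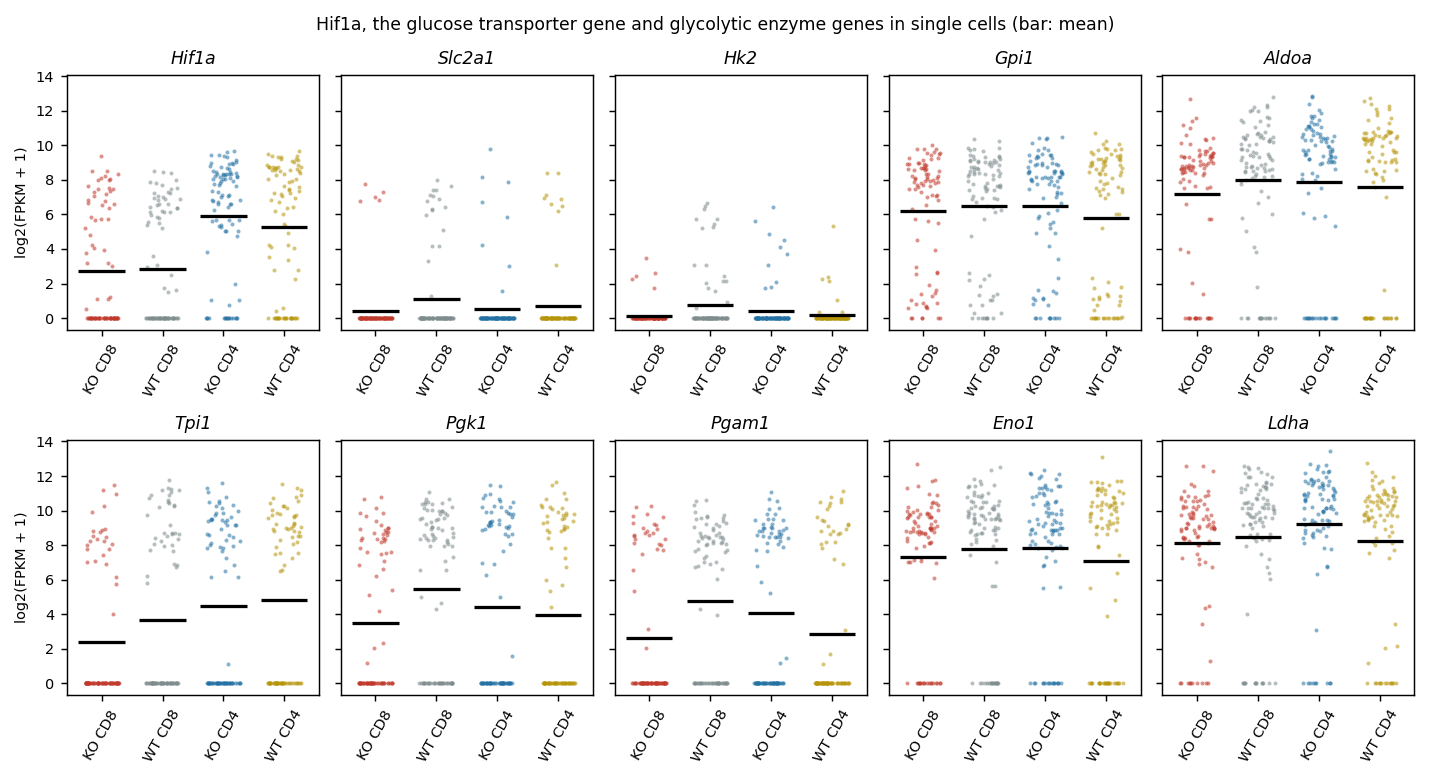
Level of each gene in each kept cell, as log2(FPKM + 1) on the vertical axis, for KO CD8, WT CD8, KO CD4 and WT CD4 cells. Each point is a cell and each bar the mean over cells. Most genes have a band of cells at 0 and a band of cells several log2 units higher, and groups differ mainly in how many cells are in each band; Hif1a is higher in both CD4 groups, with means of 5.90 and 5.29 against 2.75 and 2.83 in the CD8 groups.

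Cells with 8 or more of the 10 genes were 10.5% of KO CD8 cells (exact 95% interval 4.90% to 18.9%), against 27.8% of WT CD8 cells (18.9% to 38.2%). In the CD4 sort they were 25.8% of KO (17.1% to 36.2%) and 21.2% of WT cells (13.1% to 31.4%). All 10 were found together in 0 KO CD8 cells, which allows a share of up to 3.49%, and in 5 WT CD8, 4 KO CD4 and 1 WT CD4 cells. Intervals on shares are Clopper-Pearson intervals and cover counting error only, and amplified reads without molecular identifiers are not independent molecules.

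Hif1a separated the sorts more than it separated the genotypes. It was detected in 80.9% of KO CD4 cells (71.2% to 88.5%) and 71.8% of WT CD4 cells (61% to 81%), against 45.3% of KO CD8 (34.6% to 56.5%) and 46.7% of WT CD8 cells (36.1% to 57.5%). The lowest cell was at 0 in every group. The median was above 0 in both CD4 groups (136.4 FPKM in KO) and 0 in both CD8 groups, the upper quartile was 322.3 FPKM in KO CD4, 379.95 in WT CD4, 91.5 in KO CD8 and 81.6 in WT CD8 cells, while the highest cell reached 799, 805, 667 and 370 FPKM in KO CD4, WT CD4, KO CD8 and WT CD8 cells. The ranges overlapped, and the intervals on the shares of the CD4 groups lay above those of the CD8 groups. Where it was detected, the median level was 241.15 FPKM in KO CD4 and 259.4 in WT CD4 cells, against 101.8 in KO CD8 and 89.6 in WT CD8 cells, so both the share of cells and the level within them were higher in CD4 cells.

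The mean of log2(FPKM + 1) of Hif1a was 5.90 ± 3.31 in KO CD4 and 2.75 ± 3.36 in KO CD8 cells, a difference of 3.15, and 5.29 ± 3.70 in WT CD4 and 2.83 ± 3.30 in WT CD8 cells, a difference of 2.45 (SD over cells). Within ranges of detected genes (from 1000, from 1500, from 2000 and from 3000 up), the CD4 minus CD8 difference in KO cells was 2.93, 2.61, 3.97 and 2.75, and in WT cells 3.86, 4.06, 4.12 and 0.54. The KO value from 3000 up rests on 3 CD8 cells. The values of the lowest range rest on 8 KO and 5 WT CD8 cells, and Hif1a was detected in none of the latter. Detection in the last range, at 85.7% of 7 WT CD4 and 90.5% of 21 WT CD8 cells, was close between the sorts, whereas in the range from 1500 up to 2000 it was 72.4% of 29 WT CD4 and 30.8% of 26 WT CD8 cells. Over 15 alternative settings the difference of Hif1a was positive each time, from 1.94 to 4.34 in KO and from 1.58 to 4.06 in WT cells. Between genotypes Hif1a differed by -0.08 in the CD8 sort and by 0.61 in the CD4 sort, with SDs over cells of 3.30 to 3.70.

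Of the other 9 genes, Tpi1 came closest to the pattern of Hif1a. It was detected in 50.6% of KO CD4 (39.7% to 61.3%) and 52.9% of WT CD4 cells (41.8% to 63.9%), against 29.1% of KO CD8 (19.8% to 39.9%) and 40% of WT CD8 cells (29.8% to 50.9%). Its CD4 minus CD8 difference was 2.07 in KO and 1.18 in WT cells. The WT value was -0.20 without cells that had Foxp3 and -0.13 among cells with Pdcd1. In KO cells, all 10 genes had a higher mean in the CD4 sort, with a median of 0.79 against 0.03 for 3956 measured genes. That median was 0.28 without cells that had Foxp3, where 3 of the 10 genes were lower in CD4 cells, and 0.22 without cells that had markers of dividing cells, where 2 were lower. A gene counted as measured where it was detected in 20% or more of the cells on 1 side, which left out Slc2a1 and Hk2 in all 4 comparisons of groups. A difference of 1 on the log2 scale was the size used for counts, and 4 of the 8 measured genes were higher by it in KO cells (Hif1a, Tpi1, Pgam1 at 1.42 and Ldha at 1.10), against 8.24% of all measured genes higher and 4.55% lower by it.

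In WT cells the same contrast was mixed. Pgam1 was lower in CD4 cells, at 34.1% of cells (24.2% to 45.2%) against 57.8% (46.9% to 68.1%) in CD8 cells and a difference of -1.91, which was -0.18 after weighting by detected genes. Pgk1 was at 43.5% (32.8% to 54.7%) against 61.1% (50.3% to 71.2%) of cells, with a difference of -1.50, which was 0.72 among cells with at least 2000 detected genes. Thus 2 of 8 measured genes were lower by 1 or more and 2 were higher (Hif1a and Tpi1), against 23.4% and 1.54% of 4729 measured genes. The median of the 10 genes, -0.50, lay close to that of all measured genes, -0.53. With cells weighted so that both sides had the same weight in each range of detected genes, it was 0.99 against -0.04 for all genes, and 0.10 against -0.01 in the range from 1500 up to 2000, the only one with at least 20 cells on both sides.

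In the CD8 sort, all 10 genes had a lower mean in KO than in WT cells. Pgam1 was detected in 32.6% of KO cells (22.8% to 43.5%) against 57.8% of WT cells (46.9% to 68.1%), with medians of 0 and 125.4 FPKM and highest cells of 1242 and 1542 FPKM. Pgk1 was detected in 45.3% of KO (34.6% to 56.5%) and 61.1% of WT cells (50.3% to 71.2%), with medians of 0 and 256.96 FPKM and highest cells of 1765 and 2186 FPKM. For both genes the cells of the groups overlapped over most of their range. The median level where Pgam1 was detected was 383.4 FPKM in KO and 345.5 in WT cells, and for Pgk1 332.4 in KO and 522 in WT cells, so for Pgam1 the groups differed in the share of cells and not in the level within them.

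The mean of log2(FPKM + 1) of Pgam1 was 2.65 ± 3.99 in KO and 4.80 ± 4.24 in WT CD8 cells, a difference of -2.14. Pgk1 differed by -1.92 and Tpi1 by -1.26, and these 3 of 8 measured genes were lower by 1 or more, against 13.3% of 4686 measured genes lower and 0.555% higher. The other differences were -0.80 for Aldoa, -0.48 for Eno1, -0.38 for Ldha, -0.25 for Gpi1 and -0.08 for Hif1a. The median of the 10 was -0.65 and that of all measured genes -0.40. Slc2a1 was found in 5.81% of KO (1.91% to 13%) and 18.9% of WT CD8 cells (11.4% to 28.5%), and Hk2 in 5.81% of KO (1.91% to 13%) and 17.8% of WT CD8 cells (10.5% to 27.3%). Of all detections of Hk2, 55.6% were under 10 FPKM, against 0% to 13.6% for the other 9 genes, so its shares rest on low values.

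The number of detected genes per cell moved with this difference. Among cells with 1500 up to 2000 detected genes, the median of the 10 genes was -0.23 (40 KO and 26 WT cells), and from 2000 up to 3000 it was -0.12 (35 KO and 38 WT cells). In that second range 5.86 of the 10 genes were detected per KO cell and 5.74 per WT cell. Pgam1 differed by -0.51 and -1.43 in these ranges and Pgk1 by -0.44 and -0.70. With cells weighted over the ranges, the median of the 10 genes was 0.41, against -0.04 for all genes, and 0.27 against 0.04 with the ranges of at least 20 cells on both sides. Pgam1 at -0.85 and Pgk1 at -0.54 were still lower in KO cells after weighting, whereas Tpi1 was at 0.46. The top range held only 3 KO cells beside 21 WT cells, and its median of the 10 genes was -0.17. In the lowest range, with 8 KO and 5 WT cells, the median was 0.34. In each range from 1500 detected genes up, 6 of the 10 genes were lower in KO cells. Single genes changed sign between ranges, such as Gpi1 at -1.96 from 1500 up to 2000 and 2.32 from 2000 up to 3000. The weighted median thus differed in sign from the medians within the ranges from 1500 up. A range with few cells on 1 side received a small share of the total weight.

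**Figure D2:**
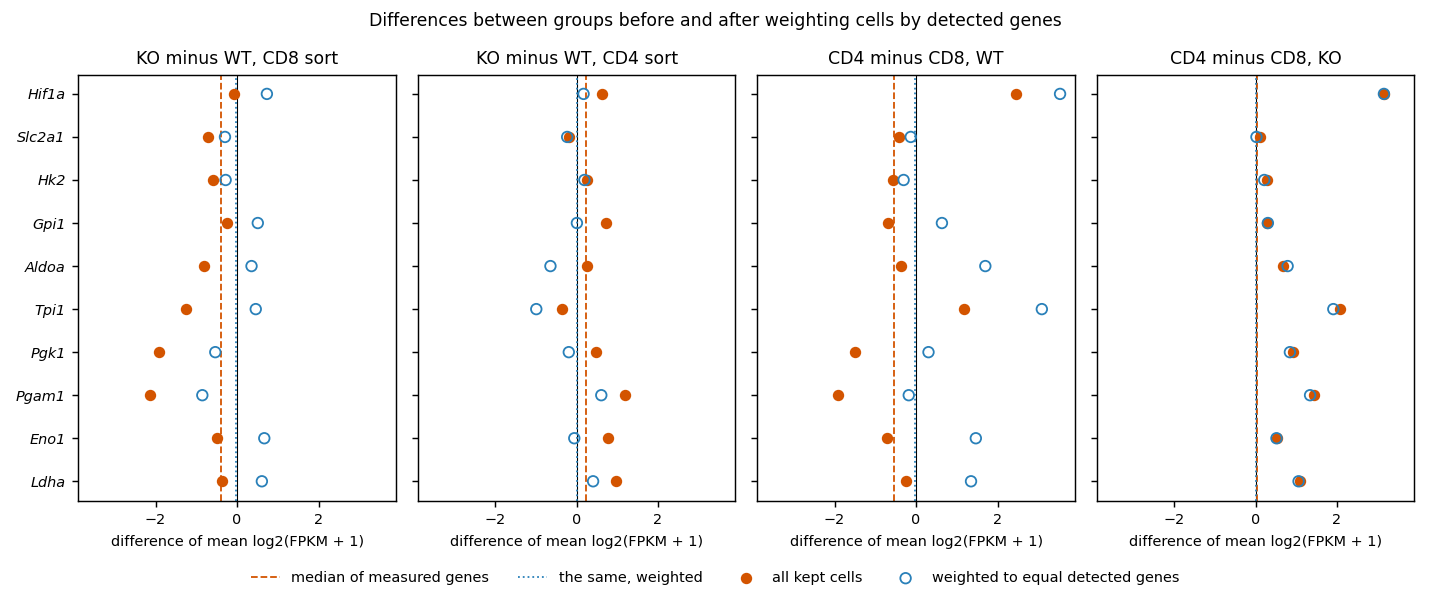
Difference of the mean of log2(FPKM + 1) for each gene in the 4 comparisons of groups, for all kept cells (filled) and after weighting by detected genes (open). The vertical lines give the median of all measured genes before and after weighting. In the CD8 sort all 10 filled points lie below 0 and 6 of the open points above it, while Hif1a stays above 2 in both CD4 minus CD8 comparisons.

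In the CD4 sort, 8 of the 10 genes had a higher mean in KO than in WT cells. Pgam1 was detected in 48.3% of KO (37.6% to 59.2%) and 34.1% of WT cells (24.2% to 45.2%), with a difference of 1.19, and was the only one of 8 measured genes past 1, against 9.91% of 3864 measured genes higher and 0.983% lower. Ldha was detected in 89.9% of KO and 84.7% of WT cells, and averaged 1794 FPKM in KO and 1214 FPKM in WT cells, with a difference of 0.98. The median of the 10 was 0.55 and that of all measured genes 0.23. After weighting by detected genes these were -0.02 and 0.01, and among cells with at least 2000 detected genes the median of the 10 was -0.41 (37 KO and 25 WT cells). Pgam1 was positive in all 15 alternative settings, from 0.61 to 1.92. Within the ranges from 1000, 1500, 2000 and 3000 detected genes up, its difference was -0.51, 0.70, 1.62 and 0.10. The first of these ranges held 14 KO and 31 WT cells. Its share in the range from 2000 up to 3000 detected genes was 67.9% of 28 KO and 55.6% of 18 WT cells.

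Near-identical copies limit single genes. The table has a row for Gm5506 (Eno1b), 99.5% identical to Eno1 over 1736 bases, which was detected in 56.5% to 63.3% of the cells of each group, so reads could be split between them. With both rows summed, the KO minus WT difference of Eno1 was -0.75 in CD8 and 0.60 in CD4 cells, against -0.48 and 0.77 alone. GENCODE lists processed pseudogenes of Pgk1 (Pgk1-rs7 and Gm5537) and of Pgam1 (Pgam1-ps2) that are 100% identical to them over 1255, 1252 and 765 bases, and copies of Ldha, Gpi1 and Tpi1 above 95%. None of these has a row in the table, and the levels of these genes are uncertain to that degree.

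Across the cells of a group, the 10 genes were found more often in cells with more detected genes. The Spearman correlation between the mean log2 level of the 10 genes and the number of detected genes was 0.58 in 86 KO CD8, 0.81 in 90 WT CD8, 0.72 in 89 KO CD4 and 0.66 in 85 WT CD4 cells. The cells of a group share a pool, and for these correlations the detected genes were counted without the 10 genes. For single genes the median correlation was 0.34 in KO CD8, 0.61 in WT CD8, 0.43 in KO CD4 and 0.38 in WT CD4 cells, against 0.15, 0.27, 0.24 and 0.26 for all measured genes. Tpi1 and Eno1 in WT CD8 cells had the highest values, both 0.68, and Slc2a1 in KO CD8 cells the lowest, 0.10. Hif1a was at 0.29 to 0.45. Pgk1 and Pgam1 went from 0% to 29% of the cells with fewer than 1500 detected genes to 95.2% or more of those with at least 3000, in every group.

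**Figure D3:**
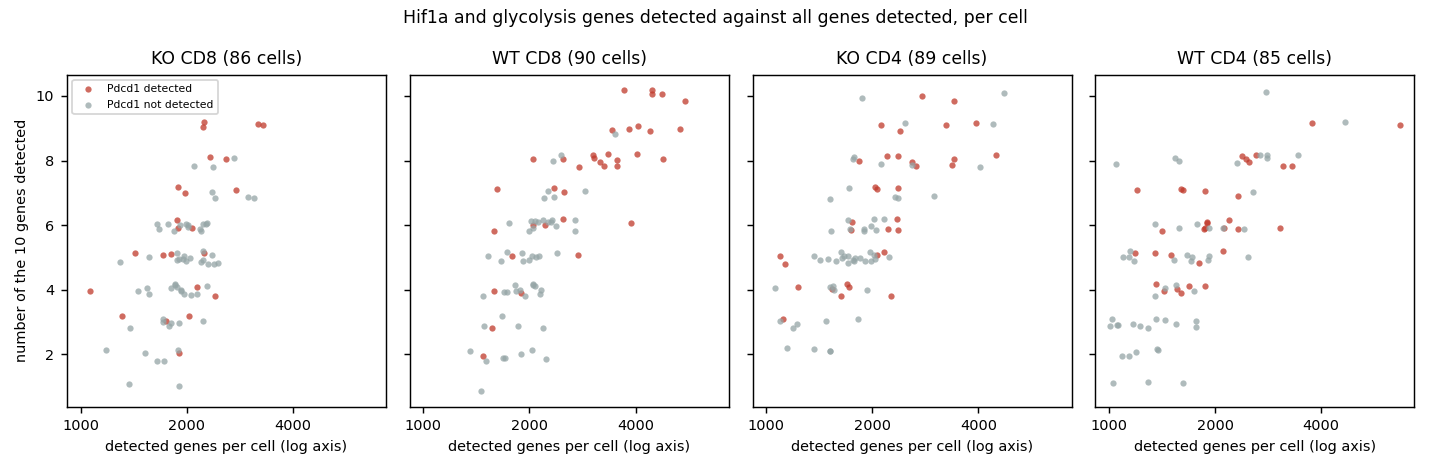
Number of the 10 genes detected (vertical axis, points spread slightly) against the number of detected genes (horizontal log axis) in each kept cell of the 4 groups, coloured by whether Pdcd1 was detected. The number of the 10 genes goes up with detected genes in each group, and the cells with all 10 in WT CD8 had over 3000 detected genes and Pdcd1.

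Pdcd1 encodes PD-1, an inhibitory receptor of activated and exhausted T cells. It was detected in 26.7% of KO CD8 (17.8% to 37.4%), 40% of WT CD8 (29.8% to 50.9%), 37.1% of KO CD4 (27.1% to 48%) and 38.8% of WT CD4 cells (28.4% to 50.01%). Cells with Pdcd1 had a higher mean than cells without it for all 10 genes in 3 groups, and for 9 of 10 in WT CD4, where Slc2a1 was the exception (-0.20). They also had more detected genes, a median of 2035 against 1929 in KO CD8 cells, 3105.5 against 2043 in WT CD8, 2204 against 1768 in KO CD4 and 1877 against 1542.5 in WT CD4 cells.

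Before weighting by detected genes, the contrast was widest in WT CD8 cells. There, Slc2a1 (33.3% against 9.26% of cells) and Hk2 (27.8% against 11.1%) counted as measured only through the 36 cells with Pdcd1. The other 8 genes were all higher by 1 or more in these cells than in the 54 without, against 43.8% of 5817 measured genes. Tpi1 was detected in 69.4% (51.9% to 83.7%) against 20.4% (10.6% to 33.5%), a difference of 5.27. Hif1a was detected in 77.8% (60.8% to 89.9%) against 25.9% (15% to 39.6%), with a difference of 3.11. Eno1 differed by 3.44 and Pgam1 by 3.15. The median over the 10 genes was 2.68, against 0.87 for all measured genes, and 0.59 against 0.08 after weighting by detected genes. In KO CD8 cells the weighted median was higher, at 0.69. Only 1 of the 21 WT CD8 cells with at least 3000 detected genes was without Pdcd1, so in that range the contrast rests on that cell.

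In KO CD8 cells, 5 of 8 measured genes were higher by 1 or more in the 23 cells with Pdcd1 than in the 63 without, against 16% of measured genes. The 5 were Pgk1 (2.10), Tpi1 (2.02), Hif1a (1.79), Gpi1 (1.67) and Ldha (1.29). The median of the 10 was 1.02 against 0.18 for all genes, in cells that differed little in detected genes, and 0.69 after weighting. Without cells that had markers of other cell types it was 0.40, and 4 of the 10 genes were lower in cells with Pdcd1. Among CD8 cells with Pdcd1, the KO minus WT median of the 10 genes was -1.60 (23 KO and 36 WT cells, -0.80 for all genes), and among those without it 0.12 (63 KO and 54 WT cells, -0.05 for all genes). The median number of detected genes was 2035 in KO and 3105.5 in WT cells with Pdcd1, and 1929 and 2043 in those without. Of the cells with Pdcd1, 2 KO and 20 WT cells had at least 3000 detected genes. Among the cells without Pdcd1, 4 of the 10 genes were lower in KO cells, with Pgk1 at -1.40 and Pgam1 at -1.08, while Tpi1 was at 0.30.

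Before weighting, the medians for Pdcd1 in CD4 cells lay between those of KO CD8 and WT CD8 cells. All 8 measured genes were higher by 1 or more in KO cells (33 with and 56 without Pdcd1), against 23% of measured genes, with a median of 1.34 against 0.44. In WT cells (33 with and 52 without), 7 of 8 were, against 21.5%, with a median of 1.58 against 0.45. Hif1a was detected in 97% of KO CD4 cells with Pdcd1 (84.2% to 99.9%) and in 71.4% of those without (57.8% to 82.7%), a difference of 2.98. Ldha was found in all 33 WT CD4 cells with Pdcd1 (89.4% to 100%) and in 75% of those without (61.1% to 86.0%). After weighting, the medians were 0.39 in KO and 0.54 in WT cells, and among cells with at least 2000 detected genes the WT median was -0.30.

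Foxp3, which defines regulatory T cells, was detected in 39.3% of KO CD4 (29.1% to 50.3%) and 54.1% of WT CD4 cells (43% to 65%), in 4 of 86 KO CD8 cells and in 0 of 90 WT CD8 cells, which allows a share of up to 3.33%. The CD8 cells were too few to compare. CD4 cells with Foxp3 had more detected genes, a median of 2152 against 1746.5 in KO and 1883.5 against 1547 in WT cells. In both CD4 groups all 8 measured genes were higher by 1 or more in cells with Foxp3 than in those without, against 30% of measured genes in KO and 23.9% in WT cells. The median of the 10 genes was 1.62 in KO cells (35 with and 54 without Foxp3), against 0.60 for all genes, and 2.17 in WT cells (46 with and 39 without), against 0.42. After weighting, these medians were 0.51 in KO and 1.17 in WT cells, against 0.17 and 0.07 for all genes. They varied between the ranges from 1000, 1500, 2000 and 3000 detected genes up. The medians were -0.57, -0.16, 1.65 and 0.27 in KO cells, and 0.79, 2.29, -0.22 and 0.57 in WT cells. The lowest range held 2 KO cells with Foxp3, and the top range 2 KO and 1 WT cells without it.

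Pgk1 stood out in WT CD4 cells, where it was found in 63% of cells with Foxp3 (47.5% to 76.8%) and 20.5% of those without (9.30% to 36.5%). Its difference was 3.75, and it kept its sign in all 13 alternative settings, from 2.37 to 5.16. Its mean was 511 FPKM in cells with Foxp3 and 187.7 in those without. Hif1a, which effector and regulatory T cells both express, was found in 97.1% of KO CD4 cells with Foxp3 (85.1% to 99.9%) and 70.4% of those without (56.4% to 82%), and in 76.1% (61.2% to 87.4%) and 66.7% (49.8% to 80.9%) of WT CD4 cells with and without it. Without cells that had Foxp3, the CD4 minus CD8 difference of Hif1a was 2.14 in KO and 1.63 in WT cells, so cells without Foxp3 showed it as well.

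**Figure D4:**
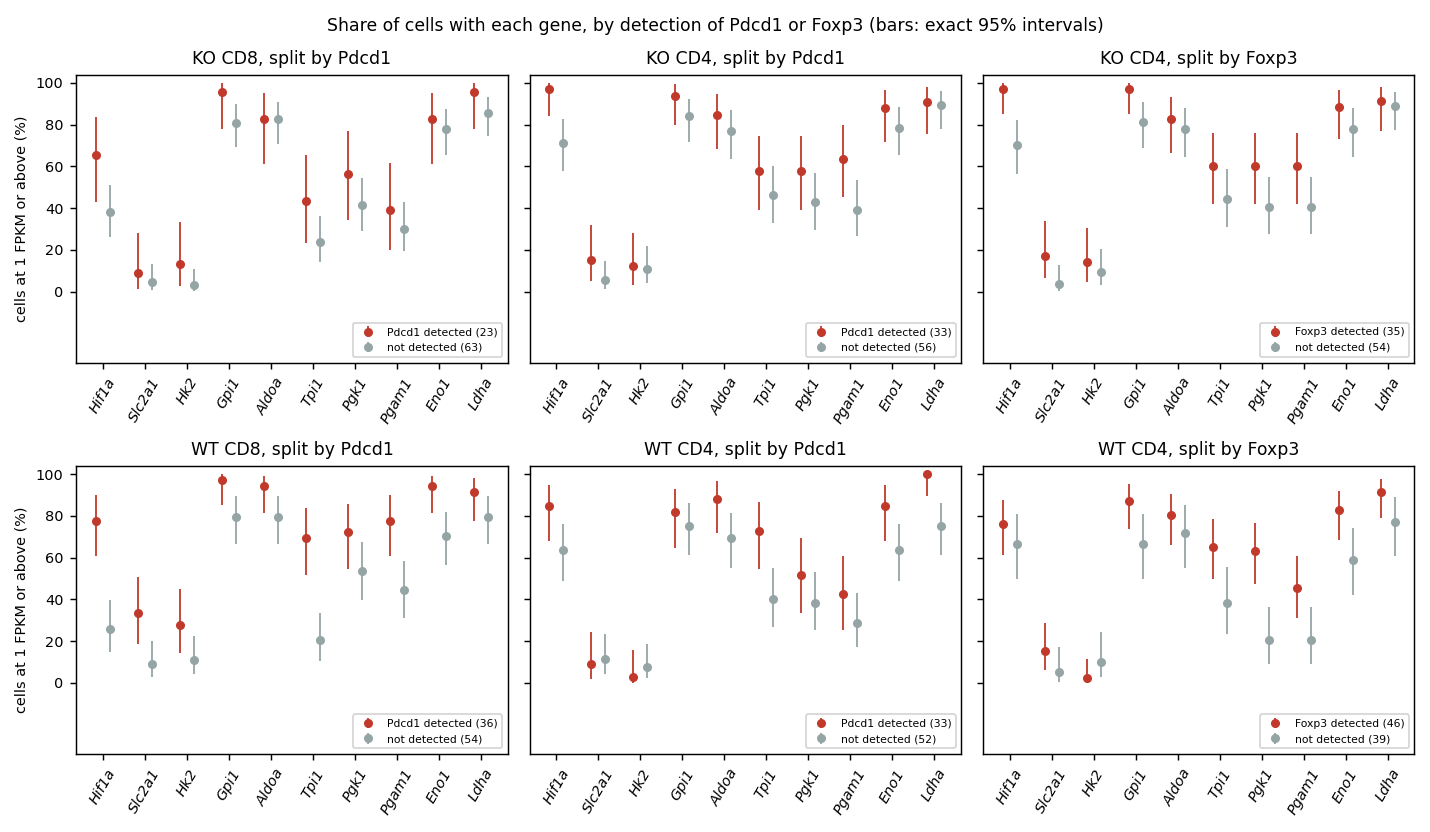
Share of cells with each gene at 1 FPKM or above (vertical axis, percent), in cells with (red) and without (grey) Pdcd1 in the 4 groups, and with and without Foxp3 in the CD4 groups. Bars are exact 95% intervals and legends give the number of cells. The widest gaps are those of Tpi1 and Hif1a in WT CD8 cells split by Pdcd1, 69.4% against 20.4% and 77.8% against 25.9%, and that of Pgk1 in WT CD4 cells split by Foxp3.

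Markers of dividing cells also differed between the groups. Cells with at least 2 of 11 proliferation markers at 10 FPKM or above were 23.3% of KO CD8, 58.9% of WT CD8, 27% of KO CD4 and 25.9% of WT CD4 cells. Cells with these markers had more of the 10 genes, 5.40 against 4.86 in KO CD8, 6.28 against 5.08 in WT CD8, 7.08 against 5.43 in KO CD4 and 6.27 against 4.95 in WT CD4 cells. Their median number of detected genes was also higher, 2172.5 against 1921 in KO CD8 and 2327 against 2049 in WT CD8 cells. In the CD4 sort it was 2248.5 against 1760 in KO and 2156 against 1580 in WT cells. Without cells that had these markers, the KO minus WT median of the 10 genes in CD8 cells was -0.23 (66 KO and 37 WT cells), against -0.11 for all genes. The part of these markers in the differences was not tested beyond these values.

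Within a group, Ldha, Eno1 and Pgk1 correlated most with the other genes. The correlation of a gene with the mean of the other 9, as Spearman's rho averaged over the 4 groups, was highest for Ldha (0.60), Eno1 (0.57) and Pgk1 (0.56), lower for Hif1a (0.37), and lowest for Slc2a1 (0.24), which few cells had. With the rank of detected genes removed, these were 0.42, 0.36, 0.34, 0.18 and 0.09. Tpi1 and Eno1 were the closest pair, at 0.50 before and 0.34 after that step. Hif1a and Hk2 were at 0.11 and 0.00. The closest partner of Hif1a after that step was Gpi1 at 0.18. Values this low in sparse single-cell data describe the cells and are not read further.

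**Figure D5:**
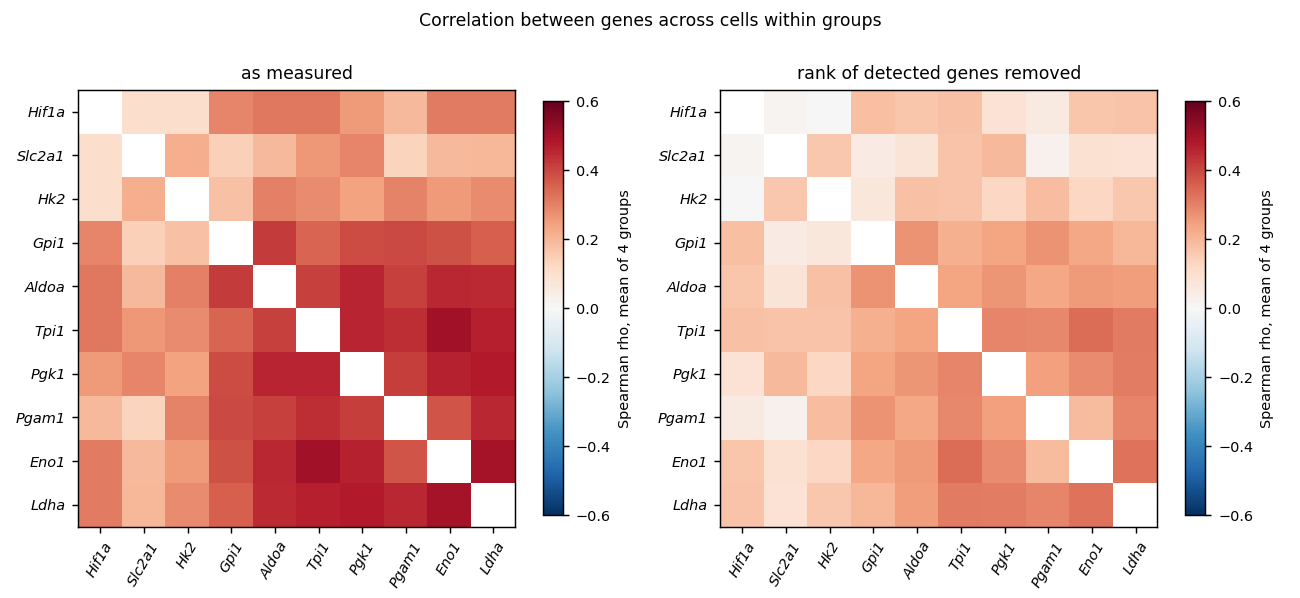
Spearman correlation (colour, mean of the 4 groups) between the 10 genes across the cells of a group, as measured on the left and with the rank of detected genes per cell removed on the right. The block of Tpi1, Pgk1, Eno1 and Ldha is darkest in both, and the rows of Hif1a, Slc2a1 and Hk2 are pale.

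Among 2549 genes found in at least 20% of the cells of every group, the genes most like the mean of the 10 were Gapdh (0.49) and Pkm (0.38), which encode the dehydrogenase and the pyruvate kinase of glycolysis and are not among the 10. These are correlations over cells, averaged over the 4 groups, with detected genes removed; the median of all 2549 genes was 0.02 and the 95th percentile 0.16. The transcribed pseudogene Gm5177 was at 0.44 and Gm5069, 95.5% identical to Gapdh over 1011 bases, at 0.37. Gm5506, the near copy of Eno1, was at 0.32, and reads could be split between it and Eno1, a gene of the score. The other genes of the top 10 were Lgals1 (galectin-1), Anxa2 (annexin A2), Jak3 (a cytokine receptor kinase), Actb (beta-actin) and the long noncoding RNA A930001A20Rik, at 0.30 to 0.34. For Pkm the value was 0.13 in KO CD8, 0.30 in WT CD8, 0.56 in KO CD4 and 0.54 in WT CD4 cells.

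The other genes of glycolysis, a list of 25 with further isoforms, transporters and enzymes, had 7 measured members in CD8 cells. All 7 had a lower mean in KO than in WT cells, 3 of them by 1 or more: the phosphofructokinase subunits Pfkl (-1.54; 16.3% of KO and 35.6% of WT cells) and Pfkp (-1.06), and Gapdh (-1.06; means of 1643 FPKM in KO and 3317 FPKM in WT cells). Pfkl counted as measured only through the WT cells, where it was higher. Of all measured genes, 13.3% were lower by 1 or more. For the 7 genes the median was -0.98, against -0.40 for all measured genes, and 0.02 after weighting by detected genes. In CD4 cells 5 of 7 were lower in KO cells and Pkm was the one past 1 (-1.03; 77.5% of KO and 88.2% of WT cells), against 0.983% of all measured genes lower by 1 or more. Its mean level, at 1261 FPKM in KO and 1177 FPKM in WT cells, was not lower in KO cells. Pkm was higher in CD4 than in CD8 cells, by 1.31 in KO and 1.36 in WT cells.

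Of 15 genes around HIF-1 (its partners, prolyl hydroxylases, the VHL ubiquitin ligase and co-activators), 8 were measured in CD8 cells, of which 6 were lower in KO cells, with a median of -0.37 beside -0.40 for all measured genes. Those past 1 were Tceb2 and Rbx1, which encode elongin B and the RING protein of the VHL ligase (-2.18 and -1.17), 2 of 8 where 13.3% of all measured genes were lower by as much. Tceb2 was detected in 40.7% of KO and 63.3% of WT CD8 cells. Egln2, a prolyl hydroxylase, differed by -0.82 and counted as measured only through WT cells. In CD4 cells 7 were measured, 5 higher in KO and none past 1 (9.91% of all measured genes were). The median was 0.42, beside 0.23 for all measured genes. Tceb1, which encodes elongin C, was at 0.79, Egln2 at 0.59 and Rbx1 at 0.54. There, Tceb1 and Egln2 counted as measured only through KO cells. The dimer partner Arnt was detected in 15.1% of KO CD8, 18.9% of WT CD8, 15.7% of KO CD4 and 21.2% of WT CD4 cells, and Egln3, which HIF-1 is known to induce, in 3.49%, 2.22%, 13.5% and 10.6% of them.

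Of 22 other known targets of HIF-1, 9 were measured in CD8 cells, with 7 lower in KO cells and a median of -0.18, above the -0.40 of all measured genes. Fam162a differed by -1.11 and was the only one lower by 1 or more (13.3% of all measured genes were). Ero1l, an oxidase of protein folding, differed by -0.87, and P4ha1, a collagen prolyl hydroxylase, by -0.42. In CD8 cells Fam162a, Ero1l and P4ha1 counted as measured only through WT cells. In CD4 cells 7 were measured and 5 were higher in KO cells, with a median of 0.14 beside 0.23 for all measured genes. Of the 7, 1 was past 1 in each direction, where 9.91% of all measured genes were higher and 0.983% lower. Bnip3l, a mitophagy receptor, was detected in 58.4% of KO and 34.1% of WT CD4 cells with a difference of 1.67, and P4ha1 in 12.4% and 32.9% with a difference of -1.36, while Ero1l differed by 0.85. There, P4ha1 counted as measured only through WT cells and Ero1l only through KO cells. The difference of Hif1a itself in CD4 cells was 0.61.

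Enzymes that lead from glycolysis to the pentose phosphate path and the mitochondrion had lower means in KO CD8 and higher means in KO CD4 cells, as the medians of all measured genes did. Of 17 such genes, all 9 measured in CD8 cells were lower in KO cells (median -0.79, and -0.40 for all measured genes), 4 by 1 or more where 13.3% of all measured genes were: Pgd (-1.69; 14% of KO and 35.6% of WT cells) and the transketolase Tkt (-1.54) and transaldolase Taldo1 (-1.01) of the pentose phosphate path, and Pdhb (-1.19) of pyruvate dehydrogenase. In CD4 cells all 8 measured were higher in KO cells (median 0.75, and 0.23 for all measured genes), 3 by 1 or more where 9.91% of all measured genes were: Pgls (1.33), Tkt (1.32) and the pyruvate carrier gene Mpc2 (1.22; 25.8% of KO and 8.24% of WT cells). Pgd counted as measured only through WT CD8 cells, and Pgls and Mpc2 only through KO CD4 cells. After weighting by detected genes, the medians were 0.11 in CD8 and 0.37 in CD4 cells, and those of all measured genes -0.04 and 0.01.

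Of 15 regulators of glucose and amino acid use, 11 were measured in CD8 cells and 8 were lower in KO cells, with a median of -0.35 beside -0.40 for all measured genes. Txnip, which encodes an inhibitor of glucose uptake, was the only one past 1 and was higher in KO cells, at 60.5% of KO and 48.9% of WT cells and a difference of 1.40, or 1.10 with cells weighted, where 0.555% of all measured genes were higher by 1 or more. None was lower by 1 or more, where 13.3% of all measured genes were. Rheb, an activator of mTORC1, differed by -0.79, and the amino acid transporter subunit gene Slc3a2 by -0.76. In CD4 cells 4 of 8 were higher and 4 lower, with a median of 0.08 beside 0.23 for all measured genes. None was past 1, where 9.91% of all measured genes were higher and 0.983% lower by as much. Tsc2 was at 0.83, Akt2 at -0.51 and Pik3cd at 0.49. Of these, Tsc2 counted as measured only through KO cells. After removal of detected genes, Txnip correlated with the mean of the 10 genes at -0.10 and Pik3cd at -0.17, averaged over the groups.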

How the data were processed

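Single cells were profiled by Smart-seq2, in which full-length cDNA of 1 cell is amplified (21 cycles) and tagmented, per the labels' protocols. The values used are gene-level FPKM, which the authors deposited after normalization between cells by TMM, per the labels. The submitters' processing notes name Bowtie, RSEM and mm10; versions are not given in the sources used here. The table held 23366 entries in 375 columns. Of these, 4 columns of cell populations were not used, and 4 entries with repeated symbols were left out. No 2 kept cells had identical values (highest correlation 0.687). Read counts were not used here, so the depth per cell is unknown beyond its detected genes.

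Cells needed 1000 or more genes at 1 FPKM to be kept. Levels were averaged per group as log2(FPKM + 1), a scale that understates differences of low genes. A detection at 1 FPKM can rest on few reads. Weighted values give both sides equal weight in ranges of detected genes. No doublet caller was used. Each group is 1 pool, so no p-value or standard error was computed from cells, and shares carry exact 95% intervals or, at 0, the limit of 3 counts. Correlations were computed within a group, as a description. The steps were tested on simulated data. Named genes are the 10 members, genes of 5 further lists with a KO minus WT difference of at least 1 (or the 3 largest of a list), and the 10 genes most like the members; Arnt, Egln3 and Pkm in CD4 against CD8 cells were named after their values were seen. Members and lists were chosen with earlier results of these data known. Near copies were found with BLAST 2.17.0 in GENCODE M21 transcripts (at least 95% identity over 300 bases). Python 3.11.15, numpy 2.4.6, pandas 2.3.3 and scipy 1.17.1 were used. Alternatives changed the filter on cells, the pseudocount, the scale per cell, and which cells were compared. The 6 chosen after seeing the data were cells with or without Pdcd1, cells without proliferation markers, weighting over ranges of at least 20 cells, leaving out Foxp3 in further comparisons, and Eno1 summed with its copy.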

Additional observations from a re-analysis of the deposited data

Results flagged for a closer look

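For 5 values, the groups' differences under the same contrast had opposite signs and were both at least 0.5 in size on the log2 scale; opposite signs with a smaller difference on 1 side, such as 1.10 in KO and -0.26 in WT cells for CD4 minus CD8 of Ldha, are not listed. None of these was tested, since each group was 1 pool, and the part of detected genes per cell in them was not tested beyond the weighted values given here. The KO minus WT difference of Pgam1 was 1.19 in the CD4 sort and -2.14 in the CD8 sort, which are 3.33 apart, and 0.61 and -0.85 after weighting by detected genes. The median of the 10 genes was 0.55 in the CD4 sort and -0.65 in the CD8 sort, which are 1.20 apart, and -0.02 and 0.41 after weighting. The CD4 minus CD8 difference of Pgam1 was 1.42 in KO and -1.91 in WT cells, which is the same gap of 3.33 from the same 4 means, and 1.34 and -0.18 after weighting. The CD4 minus CD8 difference of Pgk1 was 0.91 in KO and -1.50 in WT cells, which are 2.41 apart, and 0.84 and 0.30 after weighting. That of Eno1 was 0.54 in KO and -0.72 in WT cells, which are 1.25 apart, and 0.51 and 1.47 after weighting.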

How the results depend on the processing

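Of 57 differences of single genes past 1 in size, 699 of 722 values under alternative settings kept their sign and 23 did not. The number of detected genes limits all comparisons, since read depth is unknown and each group is 1 pool. The cause of the changes below was not tested. No paired analysis was possible because the groups share only the number 3 and, within a sort, p1 or p2, which pair no cells and leave 1 pool per group. Medians below are those of the 10 genes. With cells weighted to equal detected genes, the median was 0.41 for KO minus WT in CD8 cells (0.27 over ranges of at least 20 cells on both sides), -0.0245 in CD4 cells (-0.000146 over such ranges), 0.99 for CD4 minus CD8 in WT cells (0.10), 0.59, 0.39 and 0.54 for Pdcd1 in WT CD8, KO CD4 and WT CD4 cells, and 0.51 and 1.17 for Foxp3 in KO and WT CD4 cells. There, Tpi1 for KO minus WT in CD8 cells was 0.46 (0.45), Pgk1 for CD4 minus CD8 in WT cells 0.30, Pgk1 for Pdcd1 -0.34 in WT CD8 and -0.19 in WT CD4 cells, Tpi1 for Pdcd1 in KO CD4 cells -0.21, and Pgam1 for Foxp3 in KO CD4 cells -0.22. With at least 1500 detected genes, the median was -0.0150 for KO minus WT in CD4 cells, 0.30 for CD4 minus CD8 in WT cells and 0.36 for Pdcd1 in WT CD4 cells, where Aldoa was -0.43. With at least 2000, it was -0.41, 0.77 and -0.30 for the same 3, 0.49 for Pdcd1 in KO CD4 and 0.18 for Foxp3 in WT CD4 cells. There, Pgk1 was 0.72 for CD4 minus CD8 in WT cells, Gpi1 -0.0631 for Pdcd1 in KO CD4 cells, Aldoa -0.80, Pgk1 -0.47, Eno1 -0.20 and Ldha -0.40 for Pdcd1 in WT CD4 cells, and Gpi1 -0.54, Aldoa -0.22 and Eno1 -0.0692 for Foxp3 in WT CD4 cells. Among cells without Pdcd1, the KO minus WT median in CD8 cells was 0.12 and Tpi1 was 0.30; among cells with it, the median was -1.60. Among cells with Pdcd1, CD4 minus CD8 in WT cells was -1.22 and Tpi1 -0.13. The Foxp3 median in KO CD4 cells was 1.09 without and 0.86 with Pdcd1, and in WT CD4 cells 1.33 with it. Without cells that had Foxp3, CD4 minus CD8 was 0.28 in KO and -1.37 in WT cells, where Tpi1 was -0.20, and Tpi1 for Pdcd1 in KO CD4 cells was -0.83. Without cells that had proliferation markers, the median was 0.22 for CD4 minus CD8 in KO cells, 0.78 and 1.02 for Pdcd1 in KO and WT CD4 cells, and 0.58 and 1.60 for Foxp3 in KO and WT CD4 cells; Slc2a1 was -0.40 for Pdcd1 in WT CD8 cells and Pgam1 -0.14 in WT CD4 cells. Without cells that had markers of other cell types, Pdcd1 gave 0.40 in KO CD8 and 2.17 in WT CD8 cells. With a pseudocount of 0.1 or 10, Pdcd1 gave 3.23 or 2.05 in WT CD8 and 2.13 or 0.99 in WT CD4 cells, and Foxp3 2.78 or 1.45 in WT CD4 cells. The correlations with detected genes moved by less than 0.1 under other filters on cells.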
